A study of Mus musculus with 24 samples.

Results

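The genes for the D-type cyclins (Ccnd1, Ccnd2 and Ccnd3), for the Cip/Kip inhibitors of cyclin-dependent kinases (Cdkn1a, Cdkn1b and Cdkn1c) and for the Ink4 inhibitors (Cdkn2a, Cdkn2b and Cdkn2c) were examined in ATAC-seq tables of mouse embryonic stem cells. ATAC-seq uses the Tn5 transposase to insert sequencing adapters into open chromatin, so the reads in an interval measure its accessibility. Cdkn2d, also an Ink4 gene, is not among these genes and is counted below with other genes of the G1/S transition. For each of the 9 genes, every interval overlapping its GRCm38 gene body extended by 20 kb on each side was taken. This gave 131 of the 299780 intervals in the untreated (Ctrl) table and 118 of the 272268 in the inhibitor-treated (Paused) table, all of equal width. The windows of Cdkn2a and Cdkn2b overlap, and their 7 shared intervals in Ctrl and 6 in Paused were counted once in totals.

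All cells were of the E14 line, grown on gelatin in medium with serum and leukemia inhibitory factor. The 3 lines were WT and the knockouts Smad2_KO1 and Smad2_KO2, each knockout being 1 line lacking Smad2, a transducer of Nodal signalling. Ctrl cells received no inhibitor, and Paused cells received 200 nM INK128, which inhibits mTOR, for 12 hours. Each of the 6 groups had 4 libraries of 50000 cells. Values are the authors' normalized reads per interval, and the reads in intervals came to 11.8 to 16.5 M (megareads) per library in Ctrl and 11.5 to 20.0 M in Paused. The tables were normalized separately, so Smad2 knockouts were tested against WT within each treatment only, and treatments are set side by side without a test. The labels do not say whether the 4 libraries of a group came from separate cultures, so p-values measure only the spread between these libraries.

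Some libraries of Smad2_KO1 and Smad2_KO2 with the same replicate number were close to each other. For replicate 2 in Paused and replicate 4 in Ctrl, the chi-square of the knockout pair per degree of freedom was 0.9999 and 1.0055. Both were within the sampling limit of 1.0056, so those pairs agreed within sampling noise. The other same-numbered pairs exceeded their limits, at 1.02 to 1.07 in Paused and 1.06 to 1.27 in Ctrl. Smad2_KO1 replicate 3 in Ctrl was nearer to Smad2_KO2 replicate 2, at 1.14. Pairs of libraries within a knockout line stood at 1.11 to 1.49 in Paused, so every same-numbered pair was closer there. In Ctrl they stood at 1.11 to 1.43, which overlaps the same-numbered pairs. Whether the same-numbered libraries are separate cultures of separate lines cannot be told from the labels or values. A call in both lines may therefore rest on fewer independent samples than the 8 libraries named. The lines were kept apart as labelled, and counts with same-numbered knockout libraries averaged are given beside the main ones. Markers of embryonic stem cells were accessible: the strongest interval at each of 7 marker genes had a median of 383 normalized reads in Ctrl and 458 in Paused. The lowest was Pou5f1, at 44.9 and 71.4, and Klf4 was called higher in Paused. The strongest interval was picked in each table, so at some marker genes, such as Klf4 and Col1a2, the tables hold different intervals. Markers of other cell types were accessible too. Their medians in Ctrl and Paused were 239 and 242 (neural), 186 and 238 (primitive endoderm), 80.8 and 117 (trophoblast) and 88.4 and 113 (fibroblast). The level alone therefore does not mark a cell type. The summed fibroblast markers differed between lines. Over 5 such genes, none of them at 0, the summed strongest intervals lay between 528 and 562 in WT and between 449 and 491 in the knockouts in Ctrl, and between 693 and 839 against 592 and 672 in Paused. Of these 5 genes, Thy1 was called lower in both treatments and Col1a1 in Paused. The others were not called. In Paused the differences of Col1a2 were positive, at 0.75 and 0.51 (limma, adjusted p = 0.0133 and 0.0908). That interval lay 861 bases outside Col1a2, whereas the Ctrl one lay inside the gene. The differences of Twist2 in Paused were also positive, at 0.14 and 0.10. The part of the fibroblast markers in the results below was not tested. In such bulk samples, fewer cells with an open interval and less signal per cell cannot be told apart.

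D-type cyclins bind the kinases CDK4 and CDK6 and start the phosphorylation of the retinoblastoma protein, which releases E2F factors and lets cells leave the G1 phase. Ink4 proteins bind CDK4 and CDK6 directly and block them, whereas Cip/Kip proteins bind assembled cyclin and kinase complexes. Mouse embryonic stem cells are known for a short G1 phase, and Smad signalling is known in other cell types to induce Cdkn1a and Cdkn2b.

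Few intervals around these genes differed between the knockouts and WT, about as many as anywhere in the genome. An interval was called when limma gave an adjusted p under 0.05 against WT in each knockout line with the same sign. The comparisons of Smad2_KO1 and Smad2_KO2 with WT share the WT libraries. In Ctrl, 5 of the 127 tested intervals were higher and 5 were lower, that is 7.87%, against 7.15% of all 282089 tested intervals. In Paused, 7 of 114 were higher and 9 were lower, that is 14.0%, against 13.9% of all 260539. Over all intervals, 3.95% were called higher and 3.2% lower in Ctrl, and 9.01% and 4.92% in Paused. With knockout libraries averaged by number, 7 were higher and 11 lower in Ctrl, and 9 and 11 in Paused.

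The balance of higher and lower calls depended on how libraries were scaled. With the authors' scaling, 50.0% of the called intervals around these genes were higher in Ctrl and 43.8% in Paused, against 55.2% and 64.7% over all intervals. With DESeq2 size factors these shares were 23.1% and 21.1% around the genes and 37.4% and 40.9% over all. The median log2 change of all intervals was 0.08 (Ctrl) and 0.12 (Paused) with the authors' scaling, and 0.01 and 0.02 with size factors. The median around the 9 genes was -0.04 in Ctrl and 0.01 in Paused. Over all intervals in the top decile of level, the median was -0.07 in Ctrl and -0.14 in Paused.

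The D cyclin genes held most of the calls and also most of the tested intervals. In Ctrl, 4 of their 71 tested intervals were higher and 4 lower (11.3% called, against 7.15% of all). In Paused 4 of 65 were higher and 8 lower (18.5%, against 13.9%). Ccnd3 alone held 6 of these 8 calls in Ctrl and 8 of these 12 in Paused. Of the Cip/Kip intervals, 1 of 34 was higher and 1 lower in Ctrl (5.88%), and 2 of 32 were higher and 1 lower in Paused (9.38%). The Ink4 genes had 1 higher interval among 17 in Paused (5.88%). Among their 22 in Ctrl limma, edgeR and DESeq2 each called 0, with 3 at an unadjusted p under 0.05 in both lines by limma. All 8 knockout libraries lay above all 4 WT libraries at 2 intervals in Ctrl and below them at 4, where 7.48% of all intervals had such a separation in either direction. In Paused they lay above at 2 and below at 8, against 11.5% of all. No interval around these genes differed between Smad2_KO1 and Smad2_KO2 by limma, and edgeR and DESeq2 also called 0. The same held over all intervals, where limma called 0 of 282089 in Ctrl and 0 of 260539 in Paused. Around these genes 1 interval had an unadjusted p under 0.05 in each table by limma, against 3.28% and 1.97% of all intervals.

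**Figure D1:**
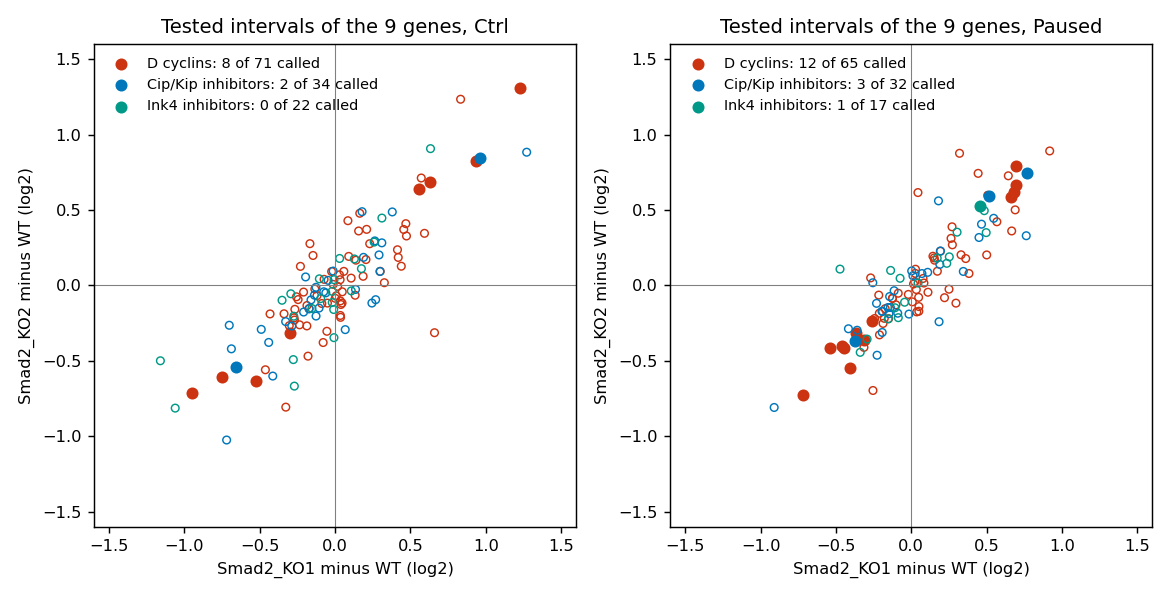
Difference from WT on the log2(value + 1) scale in Smad2_KO1 (horizontal axis) and Smad2_KO2 (vertical axis) for every tested interval around the 9 genes, Ctrl on the left and Paused on the right, with filled points for called intervals. Both axes use the same 4 WT libraries per table. Filled points of the D cyclins stand on both sides of 0, and the Ink4 genes have 0 called points in Ctrl and 1 in Paused.

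Every gene had a strongly accessible interval. The strongest interval in the gene body or within 1 kb of it stood in the top decile of level for all 9 genes in both tables. It was picked as the highest of its gene, so a high rank is not particular to these genes. Among 22 other genes of the G1/S transition, 20 had theirs in the top decile in Ctrl and 19 in Paused. In Ctrl WT libraries it was highest at Ccnd3, with 522 ± 59.1 normalized reads (SD, n = 4, as in all such values). Ccnd2 and Cdkn1a followed at 321 ± 23.4 and 318 ± 63.97, and their libraries overlapped. Cdkn2b, Cdkn1b and Ccnd1 stood at 289.8 ± 41.3, 265 ± 22.3 and 262 ± 10.8, and Cdkn2c, Cdkn1c and Cdkn2a at 212 ± 30.0, 208 ± 36.2 and 204 ± 46.0. Neighbours in each of these 3 sets did not differ beyond their spread, while Ccnd3 stood above every library of the other genes. All are levels per interval of equal width.

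Of these strongest intervals, that of Ccnd2 was called lower in Ctrl, and those of Ccnd1 and Ccnd2 were called lower in Paused. Over the strongest intervals of all protein-coding genes, 4.93% were called in Ctrl (1.65% higher and 3.28% lower) and 15.6% in Paused (2.59% higher and 13% lower). Over all intervals of the top decile of level, 8.34% were called in Ctrl (1.88% higher and 6.46% lower) and 20.1% in Paused (2.04% higher and 18.1% lower). WT replicate 3 was the lowest WT library at 8 of the 9 strongest intervals in each table, where over all genes it was the lowest at 65.4% in Ctrl and 43.0% in Paused.

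**Figure D2:**
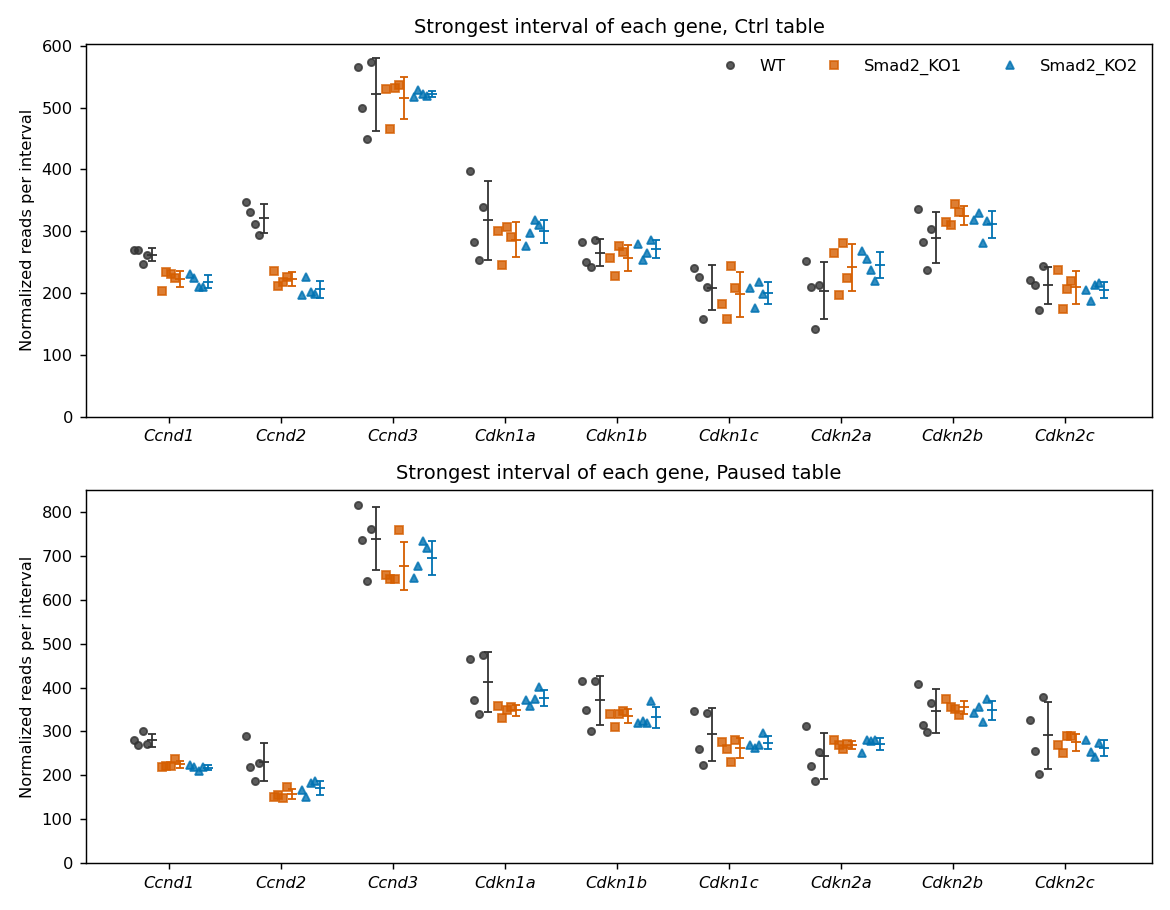
Normalized reads of each library at the strongest interval of each gene, with the mean and SD of each line beside its 4 points, for Ctrl (top) and Paused (bottom). The knockout libraries of Ccnd2 lie below all WT libraries in both tables, as do those of Ccnd1, while the other 7 genes overlap between lines.

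Ccnd2 encodes cyclin D2. Its strongest interval lay inside the gene, at chr6:127130489-127130689 in Ctrl. The 4 WT libraries had 347, 331, 312 and 293 normalized reads, the Smad2_KO1 libraries 236, 211, 217 and 226, and the Smad2_KO2 libraries 197, 226, 202 and 199. The knockout values all lay below the WT values, with the lines overlapping each other. Accessibility fell by 0.52 in Smad2_KO1 and by 0.64 in Smad2_KO2 on the log2(value + 1) scale (SE 0.09 each; limma, adjusted p = 0.000136 and 6.35e-06). In Paused, the interval at chr6:127130460-127130660 had 290.4, 218, 188 and 228 in WT, 151, 154, 149 and 173 in Smad2_KO1 and 166, 151, 182 and 186 in Smad2_KO2. Here too each knockout library stood below each WT library, and WT replicate 1 was well above the other WT libraries. Accessibility fell by 0.54 and 0.42 (SE 0.11 each; limma, adjusted p = 0.000558 and 0.00637). The calls at this interval held under all 24 alternatives in each table.

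Another interval of Ccnd2 lay just past the higher-coordinate end of the gene, 288 bases away at chr6:127152476-127152676. In Ctrl its means were 222 ± 21.9 in WT, 181 ± 22.7 in Smad2_KO1 and 178 ± 10.6 in Smad2_KO2, with a knockout library reaching into the WT range. It was called lower with adjusted p = 0.0499 and 0.0397 by limma, close to the threshold, and lost the call under 15 of 24 alternatives, such as leaving out WT replicate 1. In Paused the matching interval had 219.8 ± 28.9, 159 ± 12.5 and 166 ± 13.8, with all knockout libraries below WT. It fell by 0.46 and 0.40 (limma, adjusted p = 0.00192 and 0.00624), a call that held under all 24 alternatives. The strongest interval of the window lay in the neighbouring gene Tigar, with a WT mean of 460.1 ± 45.7 in Ctrl, and was called in neither table. The other intervals inside Ccnd2 were not called.

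Ccnd1 encodes cyclin D1. The strongest interval within 1 kb of the gene lay inside it, at chr7:144931897-144932097 in Paused. WT libraries had 279.6, 268, 301 and 271 normalized reads, Smad2_KO1 libraries 219, 222, 222 and 236 and Smad2_KO2 libraries 223, 218, 209.9 and 219.9. Knockout and WT libraries did not overlap. Accessibility fell by 0.32 and 0.36 on the log2(value + 1) scale (SE 0.09 each; limma, adjusted p = 0.00997 and 0.00356). In Ctrl, the interval at chr7:144931905-144932105 had 270.2, 270.5, 248 and 261 in WT, 203, 233, 231 and 224 in Smad2_KO1 and 230.5, 225, 209 and 210.3 in Smad2_KO2. The lines again did not overlap WT, but the difference of -0.24 and -0.26 did not pass the test (limma, adjusted p = 0.0929 and 0.0624). It did pass with DESeq2 size factors or TMM factors and with the knockouts merged or averaged.

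A stronger interval lay 1740 bases past the higher-coordinate end of Ccnd1, at chr7:144941571-144941771 in Paused. It had 410.2, 333, 377 and 397 in WT, 286, 299.9, 289 and 297 in Smad2_KO1 and 286, 293, 302 and 336 in Smad2_KO2, so that 1 knockout library stood just above the lowest WT library. It fell by 0.37 and 0.32 (limma, adjusted p = 0.00227 and 0.00808). Its Ctrl counterpart at chr7:144941546-144941746 had means of 354 ± 33.9, 295 ± 39.4 and 301 ± 15.1 and was not called (limma, adjusted p = 0.0525 and 0.11). Both Paused calls at Ccnd1 were lost under 1 of 24 alternatives, a cyclic loess scaling along the level, which left changes of -0.21 and -0.18.

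Summed over the whole Ccnd1 window, WT libraries lay between 982 and 1098 normalized reads in Ctrl and knockout libraries between 855 and 958. In Paused the sums were 1066 to 1186 in WT and 924 to 992 in the knockouts, so neither table had an overlap. For Ccnd2 the sums were 1539 to 1727 against 1287 to 1489 in Ctrl, without overlap, and 1345 to 1585 against 1225 to 1364 in Paused, with overlap. The sums of every other member gene overlapped between WT and knockouts in both tables. These sums include the called intervals and carry no test of their own. Over all intervals, the top decile of level held 44.7 to 48.1% of the signal in Ctrl WT libraries and 42.9 to 45.8% in knockout libraries. In Paused it held 46.4 to 50.7% and 44.1 to 46.9%. The part of this difference in the sums was not tested.

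**Figure D3:**
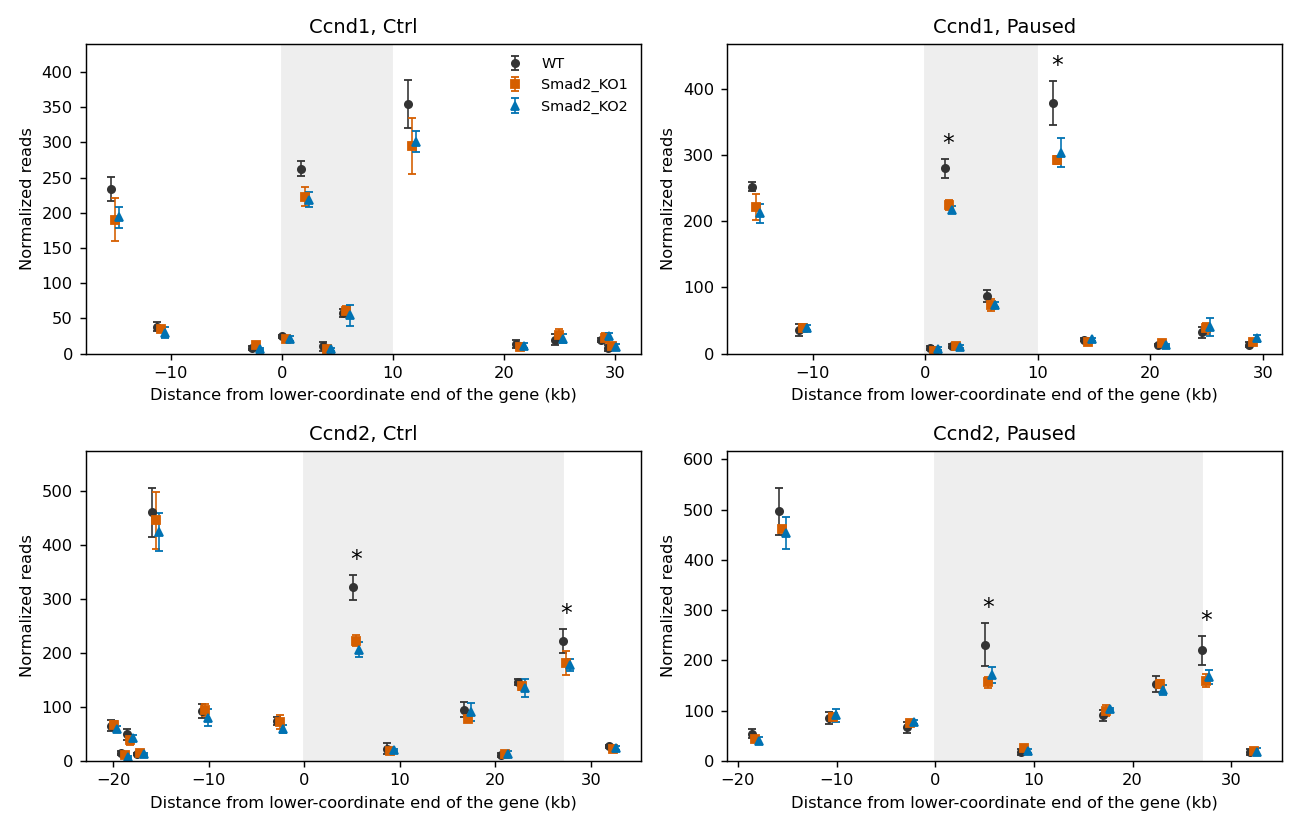
Mean normalized reads (vertical axis, SD bars, 4 libraries per line) of every interval in the Ccnd1 and Ccnd2 windows by distance from the lower-coordinate end of the gene in kb, with the gene body shaded, the lines drawn slightly side by side and an asterisk over called intervals. Knockout means stand below WT at the strongest interval of each gene, and the called ones are 2 for Ccnd2 in each table and 2 for Ccnd1 in Paused.

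Ccnd3 encodes cyclin D3 and is the longest of the 9 genes, with 46 intervals in Ctrl and 45 in Paused. Its calls went both ways, 4 higher and 2 lower in Ctrl and 4 higher and 4 lower in Paused. The strongest interval, inside the gene at chr17:47511377-47511577 in Ctrl, had 566, 499, 449 and 574 in WT, 530.0, 465, 531 and 537 in Smad2_KO1 and 517, 528, 523 and 519 in Smad2_KO2. These ranges overlapped fully, and the differences of -0.01 and 0.01 did not pass (limma, adjusted p = 0.944 and 0.973). In Paused its means were 740.4 ± 72.3, 678 ± 54.7 and 696 ± 38.2, again with no call.

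RefSeq gives promoters for 2 starts of Ccnd3. The interval over the downstream start, at chr17:47593330-47593530 in Ctrl, had means of 265 ± 36.3, 271 ± 37.9 and 276 ± 10.4 and was called in neither table. No interval overlapped the promoter of the upstream start, and the nearest one, inside the neighbouring gene Taf8, was not called either.

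Inside Ccnd3, an interval at chr17:47529023-47529223 was higher in the knockouts. In Ctrl it had 23.5, 19.7, 40.5 and 28.0 in WT, 41.9, 48.3, 57.2 and 65.8 in Smad2_KO1 and 52.1, 49.1, 56.3 and 38.2 in Smad2_KO2, where 1 knockout library fell within the WT range. It rose by 0.94 and 0.82 (SE 0.19 each; limma, adjusted p = 0.000518 and 0.00231). Its Paused counterpart at chr17:47529005-47529205, named here after its values were seen because it pairs with the Ctrl call, rose by 0.68 and 0.62 (limma, adjusted p = 0.000809 and 0.00205). The interval at chr17:47581084-47581284 rose in Paused, from a mean of 20.5 ± 5.79 to 32.9 ± 4.25 and 34.97 ± 1.65 (limma, adjusted p = 0.0142 and 0.00578). The remaining named rises, at chr17:47551738-47551938 in Ctrl and chr17:47549611-47549811 in Paused, were at low levels, with WT means of 4.67 ± 2.99 and 17.6 ± 5.22. These 2 were lost under 8 of 23 and 10 of 24 alternatives.

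The lower intervals of Ccnd3 lay inside the gene and on both sides of it. The interval at chr17:47509416-47509616 inside the gene had 73.7, 46.6, 47.1 and 77.6 in WT, 37.6, 33.9, 28.1 and 41.6 in Smad2_KO1 and 47.1, 23.7, 60.6 and 33.2 in Smad2_KO2 in Ctrl, with overlapping lines. It was called lower there, but under 8 of 24 alternatives it was not. The Paused interval at chr17:47509313-47509513 had 76.6, 71.9, 45.3 and 67.5, 47.5, 31.7, 33.7 and 43.7 and 42.0, 27.0, 42.7 and 44.9 in the same order of lines, where WT replicate 3 fell among the knockout libraries. It fell by 0.72 and 0.73 (limma, adjusted p = 0.00459 and 0.00428) and held under all 24 alternatives. The interval at chr17:47487587-47487787, in the neighbouring gene Taf8, fell by 0.95 and 0.72 in Ctrl (limma, adjusted p = 5.83e-05 and 0.00206) and held under all 24 alternatives. In Paused it fell by 0.44 and 0.41, a call lost under 11 of 24. A strong interval inside Ccnd3 at chr17:47521694-47521894, chosen after its values were seen, fell in Paused from 627 ± 54.5 to 523 ± 19.6 and 531 ± 14.2 (limma, adjusted p = 0.0109 and 0.0193). The remaining lower call in Paused, also named after its values were seen, lay 11757 bases past the higher-coordinate end, at chr17:47611446-47611646 in the neighbouring genes Bysl and Med20. It had 289, 274, 228 and 338 in WT, 214, 195, 206 and 226 in Smad2_KO1 and 169.8, 206, 186 and 203 in Smad2_KO2, with all knockout libraries below WT. It fell by 0.41 and 0.55 (limma, adjusted p = 0.00422 and 0.000244).

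Cdkn1a encodes p21, an inhibitor induced by p53 and, in other cell types, by Smad signalling. RefSeq gives promoters for its upstream and downstream starts on the plus strand, printed here because their accessibility differed several-fold. Each runs from 250 bases before the start to 50 after it, from 5′ to 3′ on the gene's strand in GRCm38.p6. Capitals mark matches, on either strand, to the motifs searched: CAGAC (core of the Smad-binding element), GGGCGG (the GC box), CCAAT (bound by the factor NF-Y), TATAAA (the TATA box), the E2F-type sites TTTCGCGC, TTTGGCGC and TTTCCCGC, and the p53 response element. The last of these was added after the sequences were seen, with 1 mismatch allowed over its 20 bases.
Cdkn1a upstream, chr17:29090729-29091028: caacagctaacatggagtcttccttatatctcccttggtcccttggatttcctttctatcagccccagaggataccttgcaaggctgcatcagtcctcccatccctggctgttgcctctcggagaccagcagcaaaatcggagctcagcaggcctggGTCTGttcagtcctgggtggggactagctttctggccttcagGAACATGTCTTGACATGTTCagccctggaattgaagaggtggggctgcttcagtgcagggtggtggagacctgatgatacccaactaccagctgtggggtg
Cdkn1a downstream, chr17:29093519-29093818: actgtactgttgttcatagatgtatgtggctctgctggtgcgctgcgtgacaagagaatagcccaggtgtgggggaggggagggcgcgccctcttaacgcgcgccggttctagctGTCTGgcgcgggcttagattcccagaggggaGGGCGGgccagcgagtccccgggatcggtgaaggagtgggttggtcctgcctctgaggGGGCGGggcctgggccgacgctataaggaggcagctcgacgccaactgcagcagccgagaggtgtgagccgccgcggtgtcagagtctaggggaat
The upstream sequence holds 2 CpG dinucleotides, 1 CAGAC on the opposite strand and 1 p53 match, a match found in 0.0883% of 32851 mouse promoters of this length. The downstream sequence holds 23 CpGs, 1 CAGAC on the opposite strand and 2 GGGCGG. Over all promoters the median was 7 CpGs, and 49.6% held CAGAC and 35.7% GGGCGG.

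Of the starts of Cdkn1a, the downstream one was the more accessible. In Ctrl, the interval over it at chr17:29093627-29093827 had 397, 282, 253 and 339.7 in WT, 301, 245, 307 and 291 in Smad2_KO1 and 276, 297, 318 and 310.0 in Smad2_KO2. The interval over the upstream start, at chr17:29090834-29091034, had means of 46.5 ± 10.3, 40.2 ± 7.33 and 47.7 ± 4.81. Every library was several-fold higher downstream, and the lines overlapped at both starts. In Paused the downstream interval averaged 413 ± 68.3 in WT, 348 ± 13.1 in Smad2_KO1 and 377 ± 18.0 in Smad2_KO2 (limma, adjusted p = 0.0634 and 0.364), and the upstream one 64.8 ± 5.69, 58.0 ± 3.27 and 59.4 ± 13.0. Neither start was called in either table, and limma called 0 of the 12 intervals in Paused, with 3 at an unadjusted p under 0.05 in both lines, where edgeR called 1 and DESeq2 0. The only call of the window was a weak interval in the neighbouring gene Rab44, chr17:29116944-29117144, higher in Ctrl at 18.0 ± 4.89 and 16.2 ± 2.34 against 9.11 ± 4.34, which was lost under 17 of 24 alternatives.

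Cdkn1b encodes p27, which binds cyclin E and CDK2 complexes. Its strongest interval covered the annotated start, at chr6:134920296-134920496 in Ctrl, with 283, 251, 242 and 286 in WT, 257, 228, 276 and 267 in Smad2_KO1 and 279.6, 254, 266 and 286 in Smad2_KO2. The lines overlapped and the adjusted p by limma was 0.8 and 0.866. In Paused the means were 371 ± 55.4, 334 ± 16.0 and 333 ± 24.1 (limma, adjusted p = 0.289 and 0.26). Downstream of the gene, 2 intervals rose in Paused. The one 13106 bases past its end, at chr6:134938631-134938831, had 49.7, 48.3, 72.3 and 38.4 in WT, 68.4, 72.5, 70.0 and 82.4 in Smad2_KO1 and 74.9, 69.0, 87.6 and 77.7 in Smad2_KO2, where WT replicate 3 lay within the knockout range. It rose by 0.52 and 0.59 (limma, adjusted p = 0.0139 and 0.00536) and lost the call under 2 of 24 alternatives, a DESeq2 Wald test and leaving out WT replicate 4. The other, at chr6:134930119-134930319, was weak, with a WT mean of 13.5 ± 6.45, and lost the call under 18 of 24.

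Cdkn1c encodes p57, an imprinted inhibitor. Its strongest interval, at chr7:143461020-143461220 in Ctrl, overlapped the higher-coordinate end of the gene and had 240.3, 227, 158 and 209 in WT, 183, 157, 244 and 208 in Smad2_KO1 and 208, 177, 218 and 199 in Smad2_KO2. These ranges overlapped, and the Paused means of 293 ± 61.2, 262 ± 22.5 and 274 ± 15.2 likewise gave no call. The calls of this window lay in Slc22a18, a neighbouring gene. In Ctrl, chr7:143473604-143473804 had 79.3 ± 6.91 in WT, 50.3 ± 8.07 in Smad2_KO1 and 54.97 ± 12.9 in Smad2_KO2 (limma, adjusted p = 0.00345 and 0.017), lost under 3 of 24 alternatives. In Paused, chr7:143480637-143480837 had 165 ± 15.1, 127 ± 13.7 and 127.9 ± 17.5, with all knockout libraries below WT (limma, adjusted p = 0.018 and 0.0198), lost under 5 of 24.

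Cdkn2a carries a pair of starts that make different proteins. The upstream start leads to p19Arf, which stabilizes p53 through Mdm2, and the downstream start to p16Ink4a, an inhibitor of CDK4 and CDK6. Both promoters are printed because the upstream interval had the higher value in WT and in both knockouts, with the same motifs in capitals on the minus strand of GRCm38.p6.
Cdkn2a upstream, chr4:89294570-89294869: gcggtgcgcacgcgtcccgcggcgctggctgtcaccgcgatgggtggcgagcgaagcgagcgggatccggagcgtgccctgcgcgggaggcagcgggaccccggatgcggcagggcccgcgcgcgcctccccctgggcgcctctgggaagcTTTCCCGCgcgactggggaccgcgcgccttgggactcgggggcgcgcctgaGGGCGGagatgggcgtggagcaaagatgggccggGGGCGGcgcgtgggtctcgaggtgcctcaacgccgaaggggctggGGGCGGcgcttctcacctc
Cdkn2a downstream, chr4:89282143-89282442: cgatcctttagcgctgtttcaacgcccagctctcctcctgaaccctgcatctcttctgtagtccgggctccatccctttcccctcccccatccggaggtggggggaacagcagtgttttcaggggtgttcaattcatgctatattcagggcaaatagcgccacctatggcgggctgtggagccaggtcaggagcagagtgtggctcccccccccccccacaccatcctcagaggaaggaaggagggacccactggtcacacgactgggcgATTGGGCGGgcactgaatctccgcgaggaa
The upstream sequence holds 45 CpGs, a number that 1.93% of promoters reach, with 3 GGGCGG and 1 TTTCCCGC, an E2F-type match found in 1.07% of promoters. The downstream sequence holds 12 CpGs, 1 CCAAT on the opposite strand and 1 GGGCGG, which overlap. CCAAT was found in 37.4% of promoters. Neither sequence held CAGAC or the p53 match. They also lacked TATAAA, found in 13.6% of promoters, and the sites TTTCGCGC (0.323%) and TTTGGCGC (0.514%).

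At the upstream start of Cdkn2a, the interval chr4:89294623-89294823 had 252, 210.5, 141 and 212 in WT in Ctrl, 264, 197, 281 and 224 in Smad2_KO1 and 268, 255, 237 and 219 in Smad2_KO2. The knockout means were above the WT mean, but the lines overlapped and the differences of 0.26 and 0.29 did not pass (limma, adjusted p = 0.145 and 0.109). WT replicate 3 was far below the other WT libraries, and WT replicate 1 above them. Without WT replicate 1 the interval was called higher, with a mean difference of 0.38. In Paused it had 312, 221, 188 and 254 in WT, 281, 269, 259 and 271 in Smad2_KO1 and 251, 279.7, 277 and 280.1 in Smad2_KO2, again overlapping and without a call (limma, adjusted p = 0.24 and 0.217). There, too, it was called higher without WT replicate 1, with a mean difference of 0.30.

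At the downstream start of Cdkn2a, the values were lower and the knockout means stood below WT. In Ctrl, chr4:89282174-89282374 had 128.2, 124, 112 and 104 in WT, 112, 86.4, 87.2 and 102 in Smad2_KO1 and 104, 97.4, 103 and 99.6 in Smad2_KO2. The ranges overlapped, with differences of -0.27 and -0.20 (limma, adjusted p = 0.139 and 0.302). In Paused, chr4:89282160-89282360 had 184, 137, 137 and 192 in WT, 137, 140.5, 123 and 124 in Smad2_KO1 and 129, 121, 114 and 138 in Smad2_KO2. It passed the test in Smad2_KO2 and not in Smad2_KO1 (limma, adjusted p = 0.0265 and 0.0678, differences of -0.36 and -0.29), where 19.3% and 19.4% of all intervals passed in the same lines. It was called in both under 6 of 24 alternatives, among them the replicate block and leaving out WT replicate 2 or 3. The differences from WT at the starts were opposite in sign but called at neither start in the main fit. They were not tested against each other.

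**Figure D4:**
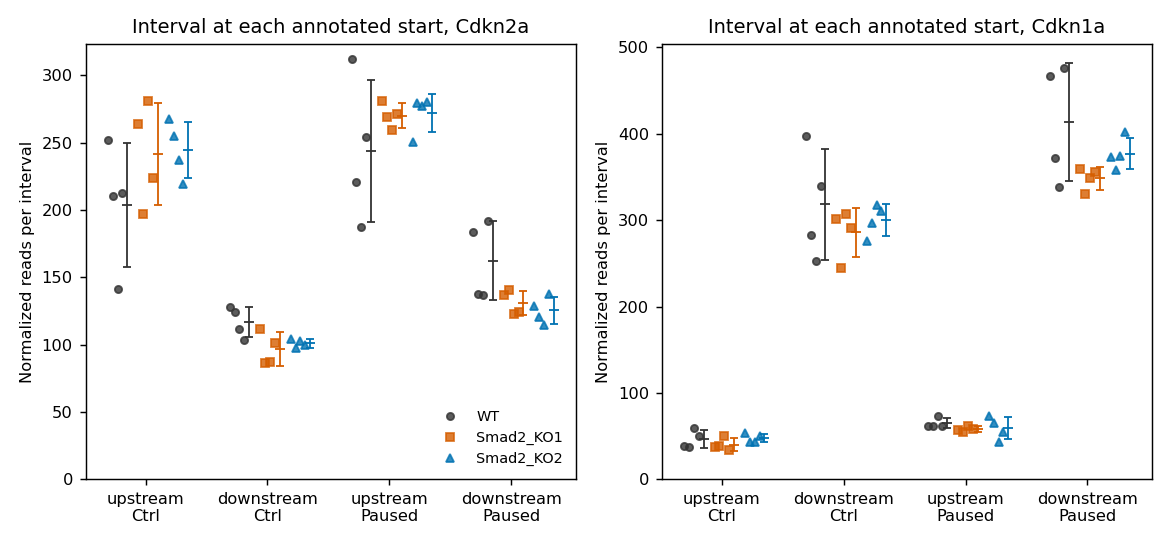
Normalized reads of each library at the intervals over the upstream and downstream starts of Cdkn2a (left) and Cdkn1a (right), with the mean and SD of each line. The upstream start is the higher one for Cdkn2a and the downstream start for Cdkn1a in both tables, and the lines overlap at each start.

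Cdkn2b encodes p15Ink4b and lies beside Cdkn2a. Its strongest interval, chr4:89310820-89311020 in Ctrl, overlapped the promoter and had 336, 282, 238 and 303 in WT, 315, 309, 344 and 332 in Smad2_KO1 and 318, 329, 280.5 and 317 in Smad2_KO2. Lines overlapped, and the differences of 0.18 and 0.11 did not pass (limma, adjusted p = 0.23 and 0.495). In Paused the means were 347 ± 50.2, 355 ± 14.8 and 348 ± 21.6 (limma, adjusted p = 0.757 and 0.922). Limma, edgeR and DESeq2 called 0 of its 7 intervals in Ctrl and 0 of its 6 in Paused, with 2 and 1 at an unadjusted p under 0.05 in both lines by limma.

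Cdkn2c encodes p18Ink4c. The interval over its promoter, chr4:109666788-109666988 in Ctrl, was not called, with means of 212 ± 30.0 in WT, 209 ± 26.2 in Smad2_KO1 and 205 ± 12.8 in Smad2_KO2. In Paused it had 327, 254, 204 and 379 in WT, a wide spread, against 275 ± 18.5 and 262 ± 17.9 in the knockouts. The only call around Cdkn2a, Cdkn2b and Cdkn2c lay 5271 bases past the higher-coordinate end of Cdkn2c, at chr4:109672027-109672227 in Paused. It had 52.9, 53.7, 46.4 and 37.1 in WT, 73.2, 67.1, 69.1 and 52.6 in Smad2_KO1 and 64.9, 74.2, 74.1 and 60.2 in Smad2_KO2, with 1 knockout library within the WT range. It rose by 0.46 and 0.52 (limma, adjusted p = 0.0274 and 0.0121) and lost the call under 7 of 24 alternatives.

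Set side by side, 97 intervals around these genes had a counterpart in the other table overlapping by at least 50% of each, and 96 pairs were tested in both. Of these, 5 were called in both tables, each with the same sign: both called intervals of Ccnd2, and at Ccnd3 those at chr17:47487587, chr17:47529023 and chr17:47581080 by their Ctrl starts. All 7 matched Ctrl calls had the same sign in Paused. How often calls over all matched intervals agree between tables is not given here, so this agreement cannot be read as particular to these genes. In WT, the median Paused value of the pairs was 0.13 above the Ctrl value on a log2 scale, against 0.08 over all matched intervals and 0.24 over those in the top decile of level, where the strongest intervals stood. The strongest interval of Ccnd2 went the other way, at -0.47 in WT, -0.50 in Smad2_KO1 and -0.27 in Smad2_KO2 on that scale, from a WT mean of 321 ± 23.4 to 231 ± 43.1. Those of Ccnd3, Cdkn1b, Cdkn1c and Cdkn2c were higher in Paused by 0.50, 0.48, 0.49 and 0.45 in WT, that of Cdkn1a by 0.38, those of Cdkn2a and Cdkn2b both by 0.26 and that of Ccnd1 by 0.09. No test was made of these values across tables.

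**Figure D5:**
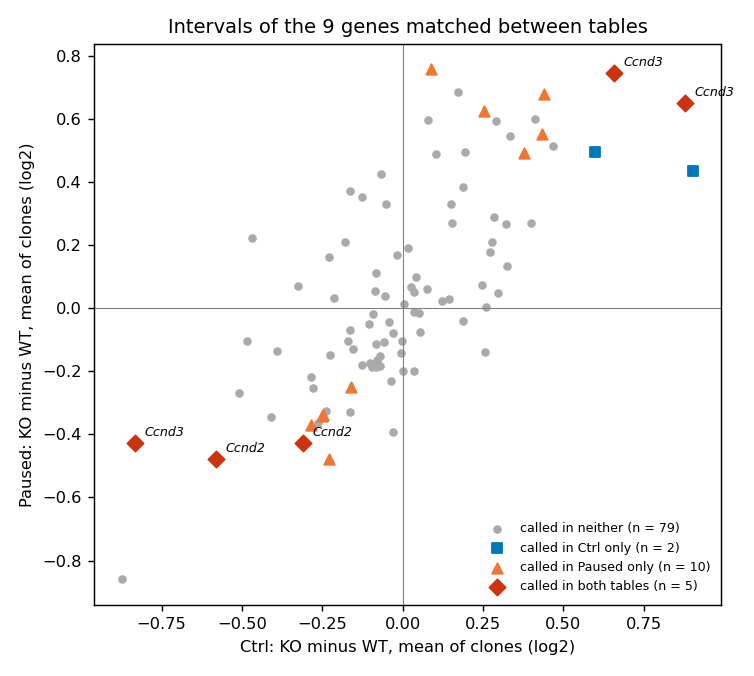
Mean log2 difference of the knockout lines from WT at the 96 matched and tested intervals, in Ctrl (horizontal axis) and Paused (vertical axis). The 5 intervals called in both tables lie in the quadrants of equal sign, 3 lower and 2 higher.

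The 22 other genes of the G1/S transition included cyclins E and A, their kinases, Cdkn2d, the E2F and retinoblastoma families, Mdm2 and Trp53. Around them, 8 of 470 tested intervals were higher and 14 lower in Ctrl (4.68% called, against 7.15% of all). In Paused 18 of 433 were higher and 23 lower (9.47%, against 13.9%). Among their 22 strongest intervals, 1 was called in Ctrl and 3 in Paused, against 4.93% and 15.6% over all protein-coding genes. Rb1, which encodes the retinoblastoma protein, was lower in Ctrl, and Rb1, E2f2 and Trp53 were lower in Paused. The interval of Trp53 lay 941 bases outside that gene, in the neighbouring gene Wrap53. Rb1 fell by 0.32 in Smad2_KO1 and 0.40 in Smad2_KO2 in Ctrl (limma, adjusted p = 0.0283 and 0.00671) and by 0.48 and 0.40 in Paused (0.000735 and 0.00461).

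The genes whose strongest interval was most like that of Ccnd1 over the 24 libraries, by Pearson's r of log2 values centred within each table among 17706 genes, were Capns1 (r = 0.92), Igf2bp2 (0.91) and Btbd17 (0.91). For Ccnd2 they were Ptpru (0.91), Znrf1 (0.90) and Slc17a9 (0.90). The 24 points of each correlation share the libraries and their scaling. Values were not centred within line, so r also carries the difference between knockouts and WT for which these intervals were chosen. Each of the listed genes was itself called lower in Paused.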

How the data were processed

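Accessibility was measured by ATAC-seq in 24 libraries, 4 per line and treatment. Per the submitters' processing notes, the tools were FastQC, Trim Galore, Bowtie2 2.4.1, MACS3 3.0.3 and DiffBind 3.16.0 and the build mm10, with no role given. Duplicate handling, shifting of reads for Tn5 and mitochondrial filtering are not given in the sources used here. The deposited library values are a normalized signal per interval. In each column at least 99.4% of values are whole multiples of 1 step within rounding, where at most 1.36% would be by chance. The steps gave whole reads and the depth. For 4 columns the step was too near 1 to tell scaled reads from rounded values. The authors' deposited log2 fold changes and p-values were not used.

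Values were tested as log2(value + 1) with limma 3.58.1 in R 4.3.3 (trend, 12 libraries of a table in 1 fit). An interval needed 10 or more in at least 4 libraries, and p-values were Benjamini-Hochberg adjusted over the whole table at 0.05. Fold changes on this scale understate those of weak intervals. Members and lists were chosen with earlier results of these data known. The text names, per gene, the strongest interval in the body or within 1 kb, the interval nearest to each start with a RefSeq promoter, and per table up to 2 higher and 2 lower called intervals with the largest change, ranked by the smaller of the changes in the knockout lines. Gene bodies came from RefSeq on GRCm38.p6, as did promoters, found for 6 of the 9 genes (not for Ccnd1, Ccnd2 and Cdkn1c). Alternatives used edgeR 4.0.16 and DESeq2 1.42.0 on recovered reads, other scalings, filters, windows and left-out libraries. On data simulated for 30000 intervals, the fit recovered 87% (Ctrl) and 81% (Paused) of log2 changes of 1, and 18% and 22% of changes of 0.5. These changes were placed only above a minimum level and were equal in both knockout lines. All intervals and lines had the same dispersion, so recovery at weak intervals or with a wider spread in WT was not measured. Across same-numbered libraries of different lines, deviations from the group means correlated at 0.03 on average in Ctrl and 0.05 in Paused. Other pairs averaged -0.0089 and -0.017. The same-numbered averages pool pairs with WT and pairs of the knockout lines, and single pairs reached 0.11 in Ctrl and 0.19 in Paused. The correlation was not over 0.1 in every pair, so the main fit did not take the numbers as pairs. A fit with the number as a block is given below.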

Additional observations from a re-analysis of the deposited data

Results flagged for a closer look

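In 9 of 129 groups of 4 libraries at the named intervals, the highest or lowest library stood apart from the other 3 by Dixon's test at the 95% level, where chance flags about 1 in 20 groups, or 6.45 here. In Ctrl, Smad2_KO2 replicate 2 was highest at the strongest interval of Ccnd2, at 225.71 against 197 to 202, which moves that line toward WT. Smad2_KO1 replicate 2 was lowest at the strongest interval of Ccnd3, at 464.68 against 530.0 to 537.

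In Paused, 4 flags were low libraries. Smad2_KO2 replicate 2 had 27.0 at the Ccnd3 interval chr17:47509313-47509513, against 42.0 to 44.9. WT replicate 4 had 11.92 at the Ccnd3 interval chr17:47581084-47581284, against 22.7 to 24.7, and without it that call was lost. Smad2_KO1 replicate 2 had 13.59 at the Cdkn1b interval chr6:134930119-134930319, against 25.1 to 26.8. Smad2_KO2 replicate 1 had 250.7 at the upstream start of Cdkn2a, against 277 to 280.1.

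The other 3 in Paused were high libraries. Smad2_KO1 replicate 4 had 759.8 at the strongest interval of Ccnd3, against 647 to 657. WT replicate 3 had 73.37 at the upstream start of Cdkn1a, against 61.5 to 62.3. Smad2_KO2 replicate 4 had 368.66 at the start of Cdkn1b, against 319 to 325.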

How the results depend on the processing

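Counts of called intervals around the 9 genes (higher and lower in Ctrl, 5 and 5, then in Paused, 7 and 9) moved with the processing. They were 3 and 10, then 4 and 15 with DESeq2 size factors; 3 and 10, then 5 and 15 with TMM factors; 2 and 3, then 5 and 7 with the compared groups alone; 12 and 13, then 13 and 15 with the 8 KO libraries as 1 group; and 7 and 11, then 9 and 11 with KO libraries averaged by replicate number. DESeq2's Wald test gave 1 and 2, then 1 and 8, and requiring a fold change of 2 (log2 of 1) as well left 1 and 0, then 0 and 0. Windows of 5 kb gave 3 and 3, then 5 and 6; the gene body alone 3 and 2, then 4 and 4; and leaving out intervals in another gene body 3 and 3, then 7 and 6. A cyclic loess scaling along the level, chosen after seeing the data, gave 4 and 6 in each table. Leaving out 1 library gave 2 to 4 higher and 3 to 6 lower in Ctrl, and 1 to 8 higher and 6 to 11 lower in Paused, where the 1 came without WT replicate 4. Library totals, no filter, a pseudocount of 0.1 and edgeR kept each count within 1.5 times. The clones differed at 0 intervals in every setting run. Beyond those with fewer libraries, intervals or a stricter rule, the cause was not tested.

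With the replicate number as a block, counts were 5 and 7 in Ctrl and 8 and 11 in Paused. Of the 12 libraries, 6 in Ctrl and 8 in Paused correlated best with a library of their own number, where 1 in 4 of the libraries of other lines carries it. This is a hint of shared variation by number from the data and not from the design, since the correlation was not over 0.1 in every pair.

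Of the changes at named intervals, 869 of 1031 kept sign and side of the threshold, 110 lost the call and 16 gained it. The sign turned in 36, all at intervals that were not called. Intervals are given by gene and start. In Ctrl, with DESeq2 size factors, the mean change became -0.022 at Ccnd3 47593330. In Ctrl, with TMM factors, the mean change became -0.014 at Ccnd3 47593330. In Ctrl, with library totals, the mean change became 0.0073 at Ccnd3 47511377, 0.0038 at Cdkn1b 134920296. In Ctrl, with cyclic loess, the mean change became 0.092 at Ccnd3 47511377, 0.071 at Cdkn1b 134920296, 0.0088 at Cdkn1c 143461020, 0.040 at Cdkn2c 109666788. In Ctrl, leaving out 1 library gave -0.18 to 0.011 at Ccnd3 47502154, -0.036 to 0.11 at Ccnd3 47593330, -0.073 to 0.045 at Ccnd3 47511377, -0.20 to 0.013 at Cdkn1a 29093627, -0.16 to 0.052 at Cdkn1a 29090834, -0.049 to 0.030 at Cdkn1b 134920296, -0.19 to 0.015 at Cdkn1c 143461020, -0.13 to 0.040 at Cdkn2c 109666788. In Paused, with DESeq2 size factors, the mean change became -0.073 at Cdkn2b 89310892. In Paused, with TMM factors, the mean change became -0.061 at Cdkn2b 89310892. In Paused, with library totals, the mean change became 0.020 at Ccnd3 47593331. In Paused, with cyclic loess, the mean change became 0.0053 at Ccnd3 47502206, 0.12 at Ccnd3 47511404, 0.14 at Ccnd3 47593331, 0.024 at Cdkn1b 134920277, 0.036 at Cdkn1c 143461022, 0.067 at Cdkn2c 109666815. In Paused, leaving out 1 library gave -0.10 to 0.057 at Ccnd3 47593331, -0.039 to 0.11 at Cdkn2b 89310892, -0.24 to 0.061 at Cdkn2c 109666815.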
